A study of Mus musculus with 12 samples.

Results

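The mouse genome names many genes Zfp, for zinc finger protein, followed by a number. Described here are the 151 genes with numbers from Zfp500 to Zfp999 that reached at least 1 RPKM (reads per kilobase of transcript model, scaled to the reads of the library) in at least 2 of 12 RNA-seq libraries, each represented by its longest transcript model. They come from 171 symbols with such a number and from 22878 gene symbols in all, of which 13429 reached the same level. The level chose the members, so a member that passed only where it is high had to differ between groups: 4 members reached 1 RPKM in embryonic stem (ES) cell libraries only, 3 in differentiated libraries only, and 2 of the former only in the 2 DKO ES libraries. Just inside the bound lay Zfp947, Zfp536 and Zfp931, with a second-highest level of 1.02, 1.07 and 1.08 RPKM, and just outside it Zfp595, Zfp619 and Zfp773, with 0.983, 0.911 and 0.861 RPKM. Counts over the members describe the 151 genes that passed and are not tested as a group.

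Polyadenylated RNA came from mouse ES cells of 3 genotypes: WT, SUV420H2 KO (below, KO) and SUV420H1_H2 DKO (below, DKO). SUV420H1 and SUV420H2 methylate lysine 20 of histone H4, and the trimethylated form marks constitutive heterochromatin. All ES cells had been grown on gelatin for several passages to remove feeder cells, in ES medium with 1.5 µM of the GSK3 inhibitor CHIR9901. Each genotype had 2 ES libraries and 1 library each at day 8 and day 12 of differentiation, so a group is 2 libraries and the 2 differentiated libraries of a genotype differ in day. Strain, clone, targeting design, differentiation medium and the origin of replicates are not given in the labels. The p-values therefore measure the spread between these libraries, which may be technical.

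Most genes of this family encode C2H2 zinc finger proteins, in which a row of small zinc-holding loops reads a DNA sequence. In many of them a KRAB box at the start of the protein recruits TRIM28 (KAP1), which gathers the histone H3 lysine 9 methyltransferase SETDB1, HP1 proteins and the NuRD remodeller, and so silences retroelements and some imprinted or developmental genes in ES cells. KRAB zinc finger genes arose by repeated duplication and lie in clusters that are themselves packed in heterochromatin. Other members lack the KRAB box and act as developmental transcription factors, co-regulators, or, for a few with other kinds of zinc finger, as factors of ribosomes and translation.

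The letters of the genes separate these kinds. Of the 150 members with a GENCODE protein-coding transcript, 84 held a match to a KRAB box pattern in their longest reading frame and 66 did not. These are called KRAB members and other members below, and a KRAB box that the pattern misses would count as other. KRAB members had a median of 12 C2H2 fingers and other members 7. Of the KRAB members 52, and of the other members 9, had at least 3 Zfp genes among their 10 nearest protein-coding neighbours. Chromosome 7 carried 43 members, chromosome 17 carried 20 and chromosome 8 carried 16. In the 250 bases before the transcription start (RefSeq, GRCm38.p6, 122 members matched) members held a median of 11 CG dinucleotides against 6 over 27025 genes, with a median of 8 in KRAB members and 17 in other members. Of the member promoters 54.9%, and of all promoters 38.2%, held at least 10. Duplication also blurs the counts: 38 of 150 members shared over 10% of their 50-base windows with transcripts of other genes, so their reads may be split among copies.

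Reads counted in genes ranged from 22538336 to 26675600 per library. Suv420h2 was at 28.6 and 25.8 RPKM in the WT ES libraries, at 4.41 and 3.95 in KO and at 5.59 and 3.37 in DKO. Suv420h1 was not lower in the libraries labelled DKO, with 5.30 and 5.77 RPKM against 3.78 and 4.18 in WT. Counts per gene cannot show the loss of a part of a gene, so the SUV420H1 side of the DKO label was not checked here, and DKO below stands for the libraries so labelled. The 6 ES cell markers summed to between 1284 and 2589 RPKM in the ES libraries. They summed to 230 and 99.6 RPKM in WT differentiated cells at days 8 and 12, to 1763 and 810 in KO and to 2522 and 1218 in DKO. Feeder fibroblast and mesenchyme markers (8 genes) summed to 484 and 310 RPKM in WT differentiated cells, 12.3 and 132 in KO and 5.29 and 1.94 in DKO. Endoderm markers (5 genes) summed to 248 and 524 in WT, 18.7 and 311 in KO and 23.0 and 277 in DKO. Mesoderm, heart and blood markers (7 genes) summed to 712 and 137, 133 and 248, and 15.8 and 38.2 in the same order. The libraries labelled as differentiated thus differ between genotypes in how much of an ES cell profile they keep. Differentiated lineages were not absent from the mutants: at day 12 both lay within the WT range of endoderm markers. In bulk RNA, fewer cells of a type and less RNA per cell cannot be told apart.

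Across the 12 libraries the members' mean levels ran from 0.305 to 70.3 RPKM with a median of 3.81, against 6.13 RPKM over all genes that reached the bound. KRAB members had a median of 2.25 RPKM and other members 7.51, and 7 of the 31 members with a mean of at least 10 RPKM were KRAB members. All 12 libraries held at least 1 RPKM of 96 members. The most abundant was Zfp622, a cytoplasmic factor of large ribosomal subunit maturation, at 63.3 and 67.8 RPKM in WT ES, 62.0 and 73.8 in KO, and 102 and 91.6 in DKO. Below it came Zfp553, Zfp710, Zfp740, Zfp598 (a ubiquitin ligase for stalled ribosomes), Zfp828 (a chromosome alignment protein), Zfp664, Zfp568, Zfp516 and Zfp771, at means of 55.7, 46.3, 37.6, 34.5, 30.2, 28.5, 27.1, 24.9 and 20.4 RPKM. Among these 10 only Zfp568 was a KRAB member. Zfp598 passed the test in none of the 8 comparisons, with ES levels between 32.1 and 44.2 RPKM and differentiated levels between 23.7 and 42.8 RPKM. The 2 libraries of a genotype lay close in ES cells: the median absolute difference over the members, in log2(RPKM + 1), was 0.0856 in WT, 0.153 in KO and 0.181 in DKO.

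In KO against WT ES cells members were called in both directions. Zfp523, a relative of the snRNA gene activator Staf, was at 3.22 and 3.27 RPKM in WT ES cells and at 1.41 and 1.12 in KO. Zfp787 was at 10.2 and 8.46 RPKM in WT and at 3.63 and 4.54 in KO, and the KRAB member Zfp647 at 5.35 and 4.90 in WT and at 2.34 and 2.06 in KO. In each of these genes both KO libraries lay below both WT libraries, and the falls were -1.31 (SE 0.18, edgeR adjusted p = 8.8e-05), -1.15 (SE 0.16, adjusted p = 0.00014) and -1.18 (SE 0.16, adjusted p = 9.9e-05) on the log2 scale. Zfp750, a factor of epidermal differentiation, went the other way, from 0.610 and 0.777 RPKM in WT to 3.45 and 3.11 in KO, a log2 rise of 2.28. Among ES libraries only those of KO reached 1 RPKM of Zfp750. The filter of 1 RPKM in 2 libraries of the fit therefore fixed that direction, and no test is given. Levels of these genes differed by more than the spread between the libraries of each genotype. Whole chromosomes also differed: in KO all genes tested had a median of 0.91 on chromosome X and of -0.53 on chromosome 14, and 0.12 on chromosome 11, which carries Zfp750.

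In all, 21 of 145 members tested were higher and 29 lower in KO than in WT ES cells (edgeR, adjusted p under 0.05), where 42.7% of 12044 genes were called, 23.5% higher and 19.2% lower. The members' median log2 fold change was -0.05 and that of all genes -0.01. The 21 include Zfp750, whose direction the filter fixed. By class, 9 of 82 KRAB members were higher and 16 lower, and 12 of 62 other members were higher and 13 lower. By at least 2-fold, 4 members were higher and 6 lower, beside 9.66% and 4.77% of all genes. The class counts are shares of 10.98% and 19.5% for KRAB members and of 19.4% and 21.0% for other members. Further large falls were those of Zfp658 (-1.41, a KRAB member whose human counterpart acts on ribosome production genes), Zfp760 (-1.16), Zfp945 (-1.01), Zfp532 (-0.94, a partner of the ZMYND8 co-regulator) and Zfp827 (-0.91, which brings NuRD to telomeres). Zfp760 and Zfp945 are KRAB members of chromosome 17, where 5 of 19 members were lower and 2 higher, beside 19.2% and 23.5% of all genes tested. Further rises were those of Zfp600 (1.0) and Zfp819 (0.97), described below, Zfp746 (0.90, the parkin substrate PARIS), Zfp775 (0.79), Zfp942 (0.73), Zfp934 (0.71) and Zfp777 (0.67). The last 3, all KRAB members, lost their call without 1 library: Zfp942 without the second WT or the first KO ES library (adjusted p = 0.16 and 0.23), Zfp934 without the first or second WT or the first KO ES library (0.14, 0.061 and 0.19) and Zfp777 without the second KO ES library (0.051). The count of 50 fell to 33 without the first WT or without the second KO ES library, and to 19 when the spread was taken from all 12 libraries.

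The DKO ES cells showed more members higher than lower. Zfp655, a KRAB member known to bind the signalling protein Vav1, was at 9.86 and 9.29 RPKM in WT ES cells, 10.7 and 8.52 in KO, and 49.7 and 62.7 in DKO. Its log2 rise over WT was 2.57 (SE 0.16, edgeR adjusted p = 7.2e-08), and the DKO libraries stood apart from all 4 others. Zfp704, listed among the developmental regulators, was at 4.16 and 4.09 RPKM in WT, 3.31 and 3.0 in KO, and 16.4 and 17.2 in DKO (2.04, SE 0.12, adjusted p = 3.9e-08). Zfp553, second in abundance, was at 45.6 and 46.6 RPKM in WT, 61.6 and 71.5 in KO, and 126 and 109 in DKO (1.36, SE 0.12, adjusted p = 9.8e-07). The KRAB member Zfp568, which silences a placental Igf2 promoter, was at 26.8 and 27.1 RPKM in WT, 28.6 and 24.9 in KO, and 49.0 and 55.9 in DKO (0.97, SE 0.12, adjusted p = 2.4e-05). In these 4 genes neither DKO library overlapped a WT or a KO library.

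Over the members, 61 of 145 were higher and 24 lower in DKO than in WT ES cells, where 63.9% of 12044 genes were called, 32.2% higher and 31.7% lower. That is 42.1% of members higher and 16.6% lower. The 61 include Zfp503, Zfp536, Zfp711 and Zfp947, which among ES libraries reached 1 RPKM only in DKO, so the filter fixed their direction. The median log2 fold change was 0.28 over members and -0.01 over all genes tested. Among KRAB members 31 of 82 were higher and 8 lower (median 0.28), and among other members 30 of 62 were higher and 15 lower (median 0.35). By at least 2-fold, 28 members were higher and 5 lower, beside 13.9% of all genes higher and 13.1% lower by that bound. Of the 106 members tested that share at most 10% of their windows with other genes, 47 were higher and 16 lower. The 144 tested genes from Zfp1 to Zfp499, chosen by the same level, stood at 64 higher and 25 lower with a median of 0.21, so genes with lower numbers had a similar split, whose difference from the members was not tested. The ES cell markers summed to 2301 and 2282 RPKM in WT ES cells and to 1581 and 1284 in DKO, and the endoderm markers (5 genes) to 1.34 and 1.19 RPKM in WT and 6.99 and 4.60 in DKO. Their part in these counts was not tested.

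**Figure D1:**
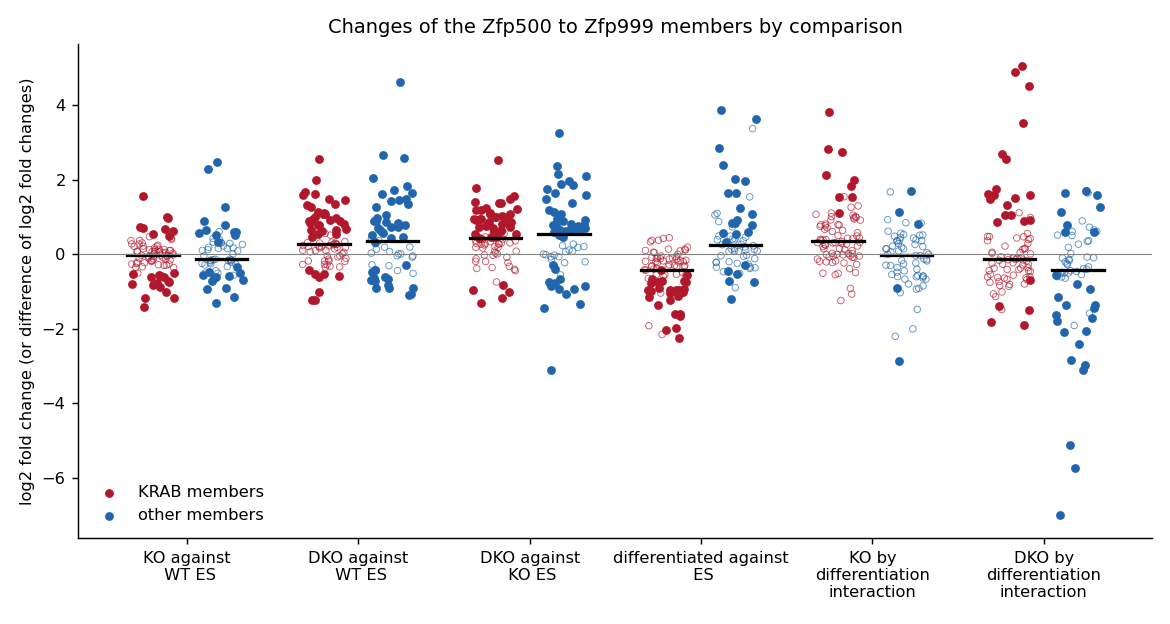
Fold change of every tested member in 6 comparisons, on a log2 scale. The last 2 columns are differences of log2 fold changes between genotypes. Each point is 1 gene, red for KRAB members and blue for other members, filled where the edgeR adjusted p was under 0.05, and the bar is the class median. In the DKO ES columns both medians lie above 0 (0.28 and 0.35 against WT), and in differentiated against ES cells the KRAB median lies at -0.42 and the other median at 0.26.

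Several of the largest DKO rises began from low levels. Zfp503 (Nolz1) and Zfp703 are sister co-repressors of limb, brain and epithelial development. Zfp503 was at 0.490 and 0.479 RPKM in WT ES cells and at 3.98 and 2.24 in DKO (2.68). Among ES libraries it reached 1 RPKM only in DKO, so the filter fixed that direction and no test is given. Zfp703 was at 0.592 and 0.845 in WT and at 3.04 and 2.05 in DKO (1.82, SE 0.24, edgeR adjusted p = 3e-05). Zfp711, an X-linked gene whose protein brings the demethylase PHF8 to DNA, was at 0.467 and 0.388 RPKM in WT and at 2.30 and 2.74 in DKO (2.57), while all X-linked genes tested had a median of -0.09. Zfp711 too reached 1 RPKM among ES libraries only in DKO, so no test is given. Zfp516, a regulator of brown fat genes, was at 8.94 and 8.03 RPKM in WT, 13.2 and 12.5 in KO, and 29.5 and 26.4 in DKO (1.73, SE 0.11, adjusted p = 1.1e-07), so its 3 genotypes did not overlap. Among KRAB members, Zfp709 rose by 1.99 (SE 0.23, adjusted p = 1.3e-05) and Zfp942 by 1.66 (SE 0.23, adjusted p = 4.7e-05), both from near 1 RPKM. Zfp942 belongs to chromosome 17, where 9 of 19 members were higher in DKO and 0 lower (0 lower also at an unadjusted p under 0.05, by DESeq2 and by limma), while 31.8% of 625 genes tested on that chromosome were higher and 29.8% lower. Among the 9, Zfp947 reached 1 RPKM in the DKO ES libraries only, which fixed its direction.

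The falls in DKO ES cells were smaller. Zfp566, a KRAB member, was at 9.0 and 8.65 RPKM in WT, 9.0 and 8.99 in KO, and 3.68 and 3.76 in DKO, a log2 fall of -1.23 (SE 0.14, adjusted p = 1.3e-05). Zfp770 was at 3.98 and 4.32 RPKM in WT, 4.20 and 3.10 in KO, and 1.81 and 2.08 in DKO (-1.08, SE 0.17, adjusted p = 0.00016). In both, the DKO libraries lay below all 4 others, while Zfp658 was low in both mutants: 2.51 and 3.20 RPKM in WT, 1.16 and 0.926 in KO, 1.47 and 0.981 in DKO (-1.22 in DKO, SE 0.22, adjusted p = 0.00045). The abundant Zfp710 fell from 59.0 and 60.0 RPKM to 36.2 and 27.7 (-0.89), Zfp828 from 43.9 and 45.03 to 27.7 and 26.0 (-0.72), Zfp771 by -0.90, Zfp580 by -0.90 and Zfp692 by -0.68. Zfp692 lies on chromosome 11, as do Zfp652 and Zfp750 below, and all genes tested on that chromosome had a median of -0.40 in DKO. The part of this shift in their values was not tested.

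**Figure D2:**
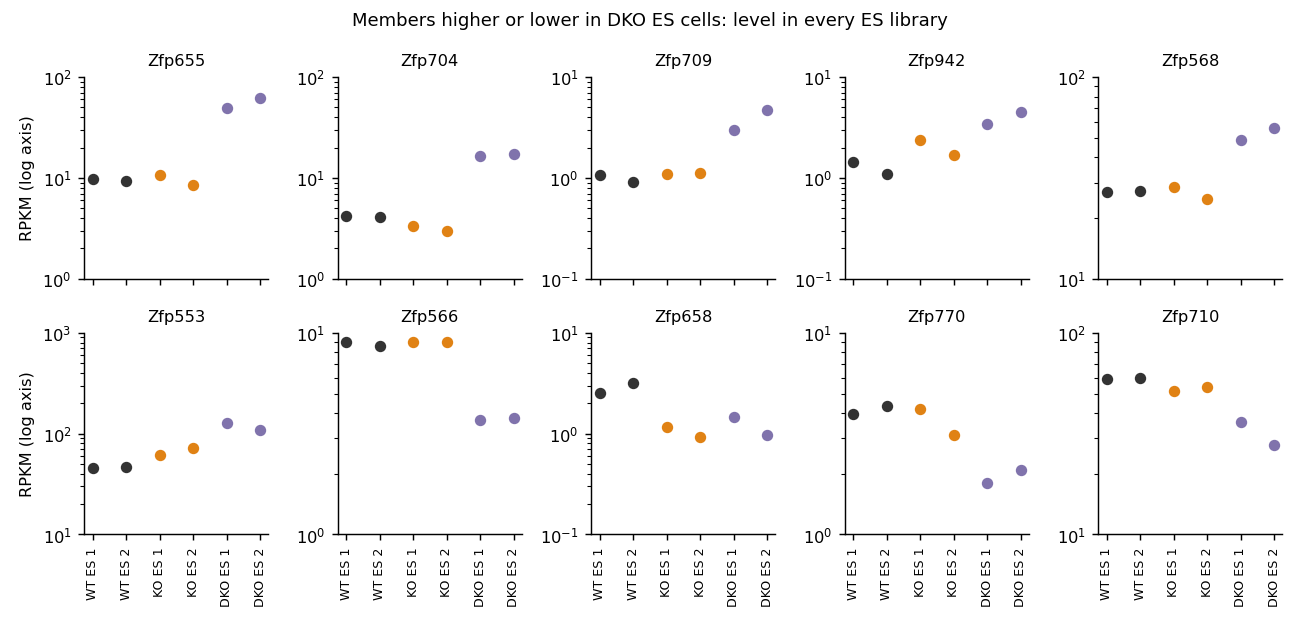
Level of 10 members in the 6 ES libraries, in RPKM on a log axis, 1 panel per gene and 1 point per library, black for WT, orange for KO and purple for DKO. The DKO points lie above all others for Zfp655, Zfp704, Zfp709, Zfp942, Zfp568 and Zfp553 and below all others for Zfp566, Zfp770 and Zfp710; for Zfp658 both mutants lie below WT.

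The mutants were also compared with each other. DKO ES cells had 73 of 145 members higher than KO and 19 lower, where 67.3% of 12044 genes were called, 33.3% higher and 34.1% lower, with a median of 0.47 over members and -0.02 over all genes. By at least 2-fold, 31 members were higher and 7 lower, beside 14.5% and 16.2% of all genes. The filter fixed the direction of Zfp503, Zfp536, Zfp711 and Zfp947 among the members called higher, and of Zfp750 among those called lower. KRAB members counted 40 of 82 higher and 5 lower, other members 33 of 62 higher and 13 lower. This comparison shares its DKO libraries with the one against WT and its KO libraries with KO against WT, so the 3 are not independent. Zfp750 stood at 3.45 and 3.11 RPKM in KO and at 0.393 and 0.388 in DKO (-3.10, with no test given). Zfp787 stood at 3.63 and 4.54 RPKM in KO and at 17.3 and 13.8 in DKO (1.89, SE 0.17, adjusted p = 8.5e-07), and Zfp523 at 1.41 and 1.12 in KO and at 4.63 and 4.08 in DKO (1.75, SE 0.18, adjusted p = 2.9e-06). For Zfp750 WT lay between the mutants, and for Zfp787 and Zfp523 WT lay between a lower KO and a higher DKO. Zfp503 (3.24), Zfp655 (2.52), Zfp704 (2.38), Zfp629 (2.10), Zfp711 (1.97) and Zfp709 (1.78) completed the largest rises among members with a group mean of at least 2 RPKM, and Zfp503 lies on chromosome 14, where all genes tested had a median of 0.60. By the same bound the other large falls were Zfp775 (-1.44), Zfp771 (-1.32), Zfp566 (-1.30), Zfp600 (-1.19), Zfp692 (-1.07), Zfp819 (-1.0) and Zfp593 (-0.94), a ribosome biogenesis factor. On chromosome 11, which carries Zfp750 and Zfp692, all genes tested had a median of -0.56, and on chromosome X, which carries Zfp711, of -0.93.

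**Figure D3:**
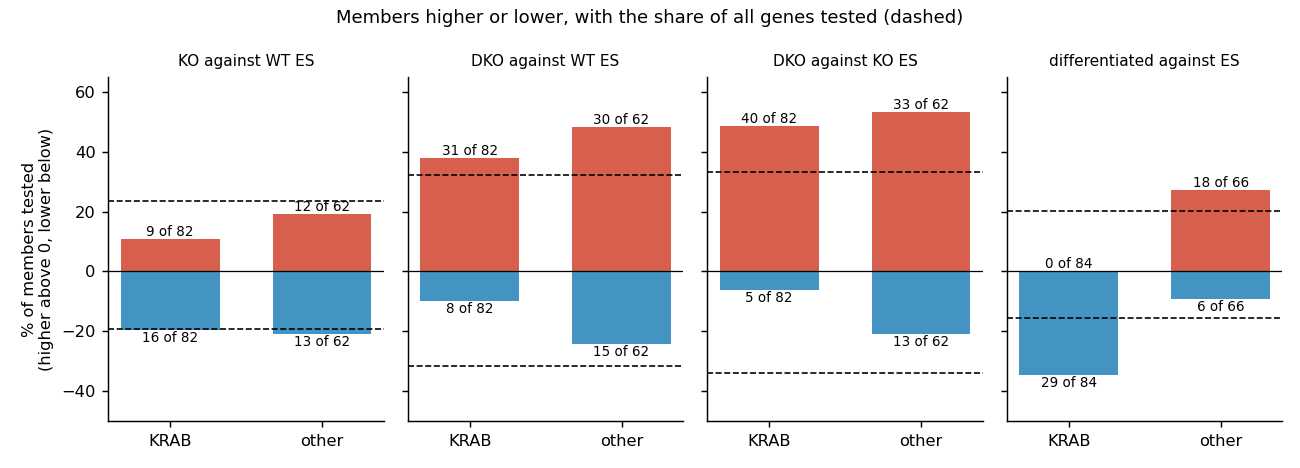
Share of tested members called higher (red, above 0) or lower (blue, below 0) in 4 comparisons, in percent, for KRAB and other members, with the number of genes written at each bar. Dashed lines give the shares over all genes tested: in DKO against WT ES cells both classes lie above the line for higher and short of the line for lower, and in differentiated against ES cells 0 of 84 KRAB members were higher and 29 lower.

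RNA of the cofactors and effectors through which KRAB proteins act was measured in the same DKO ES cells. Of 26 genes listed, 11 were lower, 5 higher and 10 did not pass the test against WT, with a median of -0.24, beside 31.7% of all genes lower and 32.2% higher with a median of -0.01. The list also holds Zfp57 and Zfp445, which are KRAB zinc finger genes and not cofactors, and Zfp445 (0.32) is among those higher. Trim28 itself was at 358 and 358 RPKM in WT ES cells, 306 and 378 in KO, and 215 and 205 in DKO (log2 -0.76, SE 0.12, adjusted p = 0.00013). Setdb1 was at 18.8 and 19.0 RPKM in WT, 16.6 and 15.8 in KO, and 11.5 and 10.7 in DKO (-0.76, SE 0.11, adjusted p = 5.7e-05), and its partner Atf7ip at 13.5 and 13.7 in WT, 18.1 and 14.8 in KO, and 6.30 and 6.60 in DKO (-1.06, SE 0.13, adjusted p = 1.5e-05). In these 3 genes the DKO libraries lay below all WT and KO libraries. Sumo2 fell by -1.31, the NuRD helicase Chd4 by -0.88, the HP1 gene Cbx3 by -0.61 and the de novo DNA methyltransferase Dnmt3b by -2.43, while the NuRD helicase Chd3 was higher (1.0) and so was the HP1 gene Cbx5 (0.57). In KO against WT the same list counted 3 higher and 4 lower, with Zfp57 (-0.33) and Zfp445 (-0.49) among the lower. How far these levels bear on the members was not tested.

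The counts by reported role are to be read beside 23.5% of all genes higher and 19.2% lower in KO, and 32.2% higher and 31.7% lower in DKO, against WT ES cells. The 6 members known as silencers of retroelements or single loci (Zfp568, Zfp600, Zfp708, Zfp809, Zfp819 and Zfp932, all KRAB members) counted 3 higher and 0 lower in KO ES cells and 1 higher and 0 lower in DKO against WT (0 lower at an unadjusted p under 0.05 and by DESeq2 and limma in both). The rise of Zfp809, which silences murine leukaemia virus, in KO cells (5.11 and 6.27 RPKM in WT, 8.31 and 7.12 in KO, log2 0.48, adjusted p = 0.049) was lost without any 1 of the 4 WT and KO ES libraries (adjusted p between 0.052 and 0.33). Of 9 chromatin and transcription co-regulators tested, 5 were higher and 2 lower in DKO: Zfp516, Zfp711, Zfp592 (1.04), Zfp827 (0.73) and Zfp609 (0.60) rose, and Zfp652 (-0.65) and Zfp532 (-0.30) fell, the last of these not without the first or the second WT ES library (adjusted p = 0.12 and 0.26). Zfp652 lies on chromosome 11, and the filter fixed the direction of Zfp711 as above. Of 5 developmental regulators tested, 4 were higher in DKO: Zfp503, Zfp703, Zfp704 and Zfp536. The filter fixed the direction of Zfp503 and Zfp536, but not that of Zfp703 and Zfp704. Zfp536, which restrains neuronal differentiation, stood at 0.0443 and 0.0429 RPKM in WT and at 1.097 and 1.07 RPKM in DKO ES cells. It reached 1 RPKM in the 2 DKO ES libraries only, so its choice as a member fixed that direction and no test is given. Zfp750 was lower in DKO (-0.82), though not without the second WT ES library (adjusted p = 0.10). Of 7 genes listed as translation, ribosome, splicing and DNA damage factors, Zfp622 (0.57) and Zfp746 (0.89) were higher in DKO and Zfp593 (-0.43) and Zfp706 (-0.42) lower. Zfp746, the parkin substrate PARIS, is on that list although PARIS is not a factor of these kinds. Without the second WT ES library Zfp593 and Zfp706 lost the call (adjusted p = 0.11 and 0.071), and Zfp706 also without the first (0.056).

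Differentiation separated the 2 classes. Between the 6 differentiated and the 6 ES libraries, with genotype in the fit, 18 of 151 members were higher and 35 lower, where 35.8% of 13429 genes were called, 20.1% higher and 15.7% lower. By at least 2-fold 10 members were higher and 14 lower, beside 13.6% and 4.72% of all genes. Of 84 KRAB members 0 were higher by edgeR and 29 lower, with a median of -0.42; 2 were higher at an unadjusted p under 0.05, 2 by DESeq2 and 2 by limma at either pseudocount. Of 66 other members 18 were higher and 6 lower, with a median of 0.26, against 0.02 over all genes. Zfp575, Zfp608 and Zfp697, among these 18, reached 1 RPKM in differentiated libraries only, so their choice as members fixed that direction. The direction of the 4 members that reached 1 RPKM in ES libraries only was fixed likewise. KRAB members are lower in level. Of KRAB members, 9 of 26 above the members' median level and 20 of 58 below it were lower. Of other members, 12 of 50 above it and 6 of 16 below it were higher. The part of level in this split was not tested. Without the 2 DKO differentiated libraries, 4 KRAB members were higher and 30 lower, and 22 other members were higher and 11 lower. Among the 60 KRAB genes from Zfp1 to Zfp499, 3 were higher and 15 lower with a median of -0.29, and among the 89 others there 14 were higher and 17 lower, with a median of -0.15.

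The median level of the 84 KRAB members showed the shift library by library. It was 2.42 and 2.27 RPKM in WT ES cells and 1.78 and 1.24 at days 8 and 12, 2.35 and 1.98 in KO ES cells and 2.06 and 1.96 at days 8 and 12, and 2.91 and 3.67 in DKO ES cells and 1.89 and 2.29 at days 8 and 12. The 66 other members went from 5.14 and 5.24 RPKM in WT ES cells to 8.86 and 8.70 at days 8 and 12, from 5.22 and 4.99 in KO to 6.51 and 9.75, and from 7.30 and 6.07 in DKO to 7.27 and 8.12. The differentiated KRAB medians lay below both ES medians in WT and DKO, and in KO they overlapped. The medians of other members lay above those of ES cells in WT and KO and overlapped them in DKO.

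Among the KRAB members that fell, Zfp961 ranged from 11.1 to 24.7 RPKM (median 20.8) over the ES libraries and from 3.39 to 10.3 RPKM (median 6.80) over the differentiated ones, with no overlap, a log2 fall of -1.61 (SE 0.25, edgeR adjusted p = 0.0021). Zfp808 ranged from 3.31 to 6.13 RPKM (median 4.78) in ES cells and from 0.866 to 3.16 RPKM (median 1.65) after differentiation (-1.61, SE 0.31, adjusted p = 0.0046). Zfp941 ranged from 3.87 to 7.83 RPKM (median 4.25) in ES cells and from 0.598 to 3.72 RPKM (median 2.17) after differentiation (-1.65, SE 0.31, adjusted p = 0.0041). All 3 were lower in every differentiated library than in any ES library, and so were Zfp599 (-1.14), Zfp870 (-1.07) and Zfp932 (-0.94), a silencer of endogenous retroviruses. Zfp936 (-2.25, adjusted p = 0.029) and Zfp534 (-2.03, adjusted p = 0.020) had the largest falls, described next. Zfp808 and Zfp932 share 43.1% and 45.2% of their windows with other genes. The call of Zfp936 was lost without the first KO ES, the WT day 8 or the KO day 12 library (adjusted p = 0.059, 0.078 and 0.067) and that of Zfp534 without the WT day 8 library (0.057). Without both DKO differentiated libraries the falls were -3.30 and -2.88.

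Zfp534, Zfp600, Zfp819 and Zfp936 are KRAB members with high levels in ES cells. Zfp819 has been linked to retroelement silencing and genome stability in ES cells. Zfp819 and Zfp936 start 429.6 kb apart on chromosome 7, and Zfp534 and Zfp600 lie in a cluster on chromosome 4. Their 250 bases upstream of the start follow, from RefSeq on GRCm38.p6, 5′ to 3′ in the direction of the gene, with CG dinucleotides in capitals, and with the strongly CG-rich Zfp655 for comparison. They are shown because these members moved together while their CG content did not match. Zfp534 is at chr4:147702632-147702881 on the minus strand, Zfp600 (the first of 2 listed starts) at chr4:146156577-146156826 on the plus strand, Zfp819 at chr7:43606919-43607168 on the plus strand, Zfp936 at chr7:43177340-43177589 on the plus strand and Zfp655 at chr5:145231492-145231741 on the plus strand.
Zfp534: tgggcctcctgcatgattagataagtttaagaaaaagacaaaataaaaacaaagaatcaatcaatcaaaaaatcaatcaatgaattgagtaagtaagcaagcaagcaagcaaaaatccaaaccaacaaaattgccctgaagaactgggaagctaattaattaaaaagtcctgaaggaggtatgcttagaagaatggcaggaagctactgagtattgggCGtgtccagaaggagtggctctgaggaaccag
Zfp600: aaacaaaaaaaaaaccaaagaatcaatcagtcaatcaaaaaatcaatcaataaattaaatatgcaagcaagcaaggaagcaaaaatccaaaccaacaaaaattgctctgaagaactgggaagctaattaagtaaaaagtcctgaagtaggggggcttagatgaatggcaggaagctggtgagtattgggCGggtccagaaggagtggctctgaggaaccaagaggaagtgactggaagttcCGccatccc
Zfp819: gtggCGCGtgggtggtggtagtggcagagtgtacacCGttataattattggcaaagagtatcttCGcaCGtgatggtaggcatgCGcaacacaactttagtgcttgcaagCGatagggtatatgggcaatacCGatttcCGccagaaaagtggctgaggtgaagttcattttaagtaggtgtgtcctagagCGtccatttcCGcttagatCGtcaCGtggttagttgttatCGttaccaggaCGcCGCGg
Zfp936: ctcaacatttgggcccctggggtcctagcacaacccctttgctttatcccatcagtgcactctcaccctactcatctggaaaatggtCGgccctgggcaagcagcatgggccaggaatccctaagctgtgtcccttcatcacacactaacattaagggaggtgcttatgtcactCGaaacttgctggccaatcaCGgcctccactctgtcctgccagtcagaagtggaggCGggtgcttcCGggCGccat
Zfp655: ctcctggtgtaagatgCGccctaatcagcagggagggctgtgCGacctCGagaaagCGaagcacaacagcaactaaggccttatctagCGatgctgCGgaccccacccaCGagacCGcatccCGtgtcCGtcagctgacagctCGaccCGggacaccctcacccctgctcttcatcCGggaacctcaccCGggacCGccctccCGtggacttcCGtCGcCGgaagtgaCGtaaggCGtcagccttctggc
They hold 1, 2, 17, 6 and 21 CG dinucleotides. Of all promoters, 19.4%, 29.6%, 78.4%, 53.5% and 85.4% hold as many or fewer. The longest run shared by Zfp534 and Zfp600 is 28 bases, gtccagaaggagtggctctgaggaacca, which stands in the same window of 8 gene symbols in all, Rex2, Zfp980, Zfp982, Zfp985, Zfp987 and Zfp988 besides these. Zfp600 shares 83.3% of its 50-base transcript windows with other genes, most of all Rex2 (75.5%), and Zfp534 68.4%, most of all Zfp987 (53.9%). Zfp936 shares 15.2% and Zfp819 0.562%. The levels of Zfp534 and Zfp600 may therefore hold reads of copies.

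Zfp819 was at 5.85 and 7.06 RPKM in WT ES cells, 13.7 and 10.8 in KO, and 7.23 and 5.33 in DKO. At days 8 and 12 it was at 0.342 and 0.0746 RPKM in WT, 8.79 and 2.44 in KO, and 8.04 and 3.35 in DKO. Only the 2 WT differentiated libraries were below 1 RPKM, and the mutants overlapped neither. Zfp936 was at 7.25 and 7.71 RPKM in WT ES cells, 10.998 and 7.78 in KO and 7.36 and 9.04 in DKO, then at 0.445 and 0.167 in WT, 4.15 and 1.29 in KO and 6.08 and 6.84 in DKO at days 8 and 12. Zfp534 was at 19.2 and 18.9 RPKM in WT ES cells, 30.1 and 23.8 in KO and 12.98 and 18.3 in DKO, then at 1.92 and 0.850 in WT, 12.8 and 4.15 in KO and 12.9 and 10.4 in DKO. Zfp600 was at 14.04 and 14.3 RPKM in WT ES cells, 32.7 and 22.4 in KO and 10.4 and 14.2 in DKO, then at 0.808 and 0.297 in WT, 12.9 and 3.52 in KO and 14.01 and 10.5 in DKO. In all 4 genes both WT differentiated libraries lay below every other library.

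**Figure D4:**
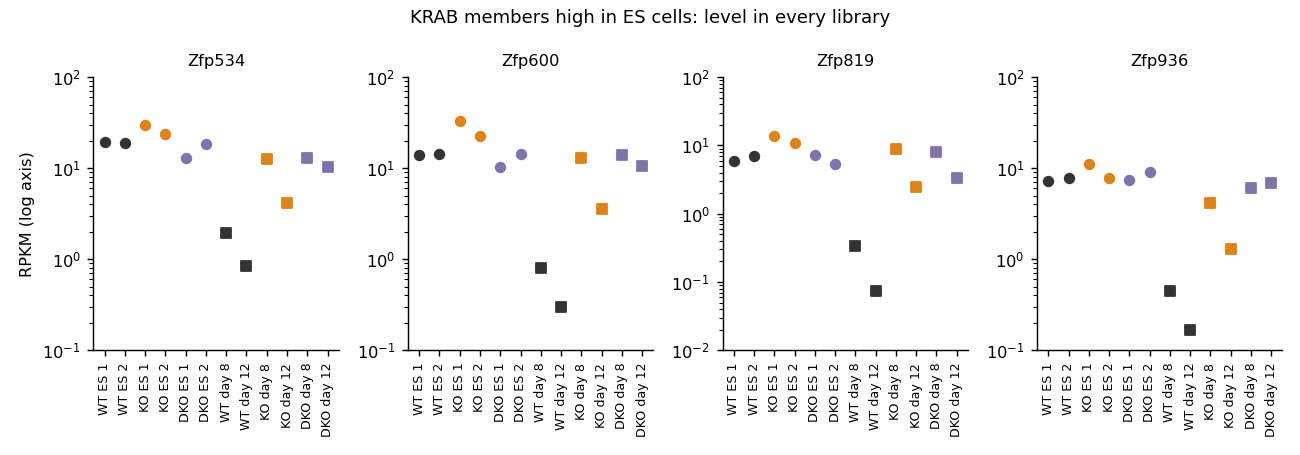
Level of Zfp534, Zfp600, Zfp819 and Zfp936 in all 12 libraries, in RPKM on a log axis, 1 point per library, circles for ES cells and squares for differentiated cells, black for WT, orange for KO and purple for DKO. The 2 WT differentiated libraries are the lowest points in each panel, and for Zfp819 they stand at 0.342 and 0.0746 RPKM.

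These 4 were the members called by edgeR in DKO against WT differentiated cells, all higher: Zfp819 by 5.07 (SE 0.37, edgeR adjusted p = 0.041), Zfp600 by 4.76 (SE 0.44, 0.043), Zfp936 by 4.71 (SE 0.59, 0.047) and Zfp534 by 3.30 (SE 0.38, 0.047) on the log2 scale. That is 4 of 143 members, beside 2.18% of 12896 genes called, 1.52% higher and 0.659% lower. DESeq2 called 24 members, 18 higher and 6 lower, and limma 7 or 8 with a pseudocount of 1 or 0.1. With day in the fit only 2 residual degrees of freedom remain, and 0 members were called without either KO or either DKO differentiated library, 2 without the WT day 8 library and 14 without the WT day 12 library. The lower count was 0 by edgeR, with 6 members lower at an unadjusted p under 0.05, 6 by DESeq2 and 2 by limma at either pseudocount. In KO against WT differentiated cells edgeR called 0 of 143 members, beside 0% of all genes; 22 members passed an unadjusted p under 0.05, DESeq2 called 16, and limma 0 or 2 with a pseudocount of 1 or 0.1. Of the members sharing at most 10% of their windows, 1 was called in DKO against WT, Zfp819. The ES cell markers moved with these 4 genes, low in WT differentiated cells and high in KO and DKO at the levels given above, and their part in the result was not tested.

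A test of the difference between genotypes in the change from ES to differentiated cells used all 12 libraries. Against WT, the change in KO differed for 14 of 151 members, 12 with a higher and 2 with a lower value, beside 16.3% of 13429 genes, 9.07% higher and 7.24% lower. The change in DKO differed for 50 members, 26 higher and 24 lower, beside 42.0% of genes, 21.1% higher and 20.8% lower, so both counts were at or below the shares over all genes. By class, 18 of 84 KRAB members had a higher and 5 a lower value in DKO, and 8 of 66 other members a higher and 19 a lower one. The shares over all genes are again 21.1% and 20.8%, and the KRAB share with a higher value was near the first. With DESeq2's size factors in edgeR the KO split was 12 higher and 4 lower. The KO count fell to between 4 and 5 without any 1 WT or KO ES library and was 32 and 25 without the WT day 8 and the WT day 12 library, and the DKO count was 28 and 27 without the first and the second WT ES library. In DKO, Zfp819 (5.04), Zfp600 (4.91), Zfp936 (4.51) and Zfp534 (3.53) had the largest positive differences of log2 fold change among members named by rule, and Zfp503 (-7.01), Zfp703 (-5.73), Zfp711 (-5.12) and Zfp521 (-3.10) the largest negative ones.

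These last 4 genes lack a KRAB box, and no C2H2 finger pattern was found in Zfp503 and Zfp703, whose kind of zinc finger is atypical. Zfp703 was at 0.592 and 0.845 RPKM in WT ES cells and at 52.5 and 90.3 at days 8 and 12. In KO it went from 1.64 and 1.73 to 13.9 and 40.7 RPKM, and in DKO from 3.04 and 2.05 to 1.24 and 13.4 RPKM, so the DKO day 8 library lay below both DKO ES libraries. Over all genotypes its log2 rise was 3.87 (SE 0.94, edgeR adjusted p = 0.012), and 5.11 without the 2 DKO differentiated libraries, 3.27 without the first WT ES library and 4.46 without DKO day 8. Zfp503 went from 0.490 and 0.479 to 27.3 and 31.3 RPKM in WT, from 0.289 and 0.345 to 2.16 and 9.95 in KO, and from 3.98 and 2.24 to 0.591 and 3.63 in DKO. Its level at days 8 and 12 was highest in WT, lower in KO and lowest in DKO, and the 3 genotypes were ordered the same way at each day. The feeder fibroblast and mesenchyme markers fell in that order at both days too. They stood at 484 and 310 RPKM in WT, 12.3 and 132 in KO and 5.29 and 1.94 in DKO. Other marker lists did not keep that order. Endoderm markers stood at 18.7 RPKM in KO and 23.0 in DKO at day 8. Mesoderm, heart and blood markers stood at 137 RPKM in WT and 248 in KO at day 12. The part of these markers in the result was not tested.

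Zfp608, a co-regulator related to the cohesin loader partner Zfp609, ranged from 0.198 to 0.681 RPKM (median 0.324) in ES cells and from 1.26 to 9.06 RPKM (median 4.55) after differentiation. Zfp697 ranged from 0.264 to 0.678 RPKM (median 0.350) in ES cells and from 1.004 to 3.48 RPKM (median 2.75) after differentiation. Both genes were under 1 RPKM in all 6 ES libraries and so are members through the differentiated libraries alone, which fixed their direction, and their levels are given without a test. The states did not overlap either for Zfp821 (0.83, adjusted p = 0.0024) and Zfp687 (0.34, adjusted p = 0.019), a partner of ZMYND8 whose call was lost without the first or second WT or the first KO ES library (adjusted p = 0.079, 0.074 and 0.055). Zfp521, a regulator of neural and blood progenitors, went from 0.374 and 0.283 to 4.06 and 2.15 RPKM in WT, from 0.0557 and 0.0645 to 1.44 and 3.08 in KO, and from 1.04 and 0.874 to 0.380 and 2.53 in DKO. Its rise over all genotypes (2.85, SE 0.79, adjusted p = 0.020) was lost without any 1 WT or KO ES library (adjusted p between 0.051 and 0.055). Zfp711 was at 5.95 and 1.83 RPKM in WT, 1.53 and 3.10 in KO, and 0.331 and 1.13 in DKO at days 8 and 12, and its DKO ES libraries, at 2.30 and 2.74, lay above both DKO differentiated ones.

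**Figure D5:**
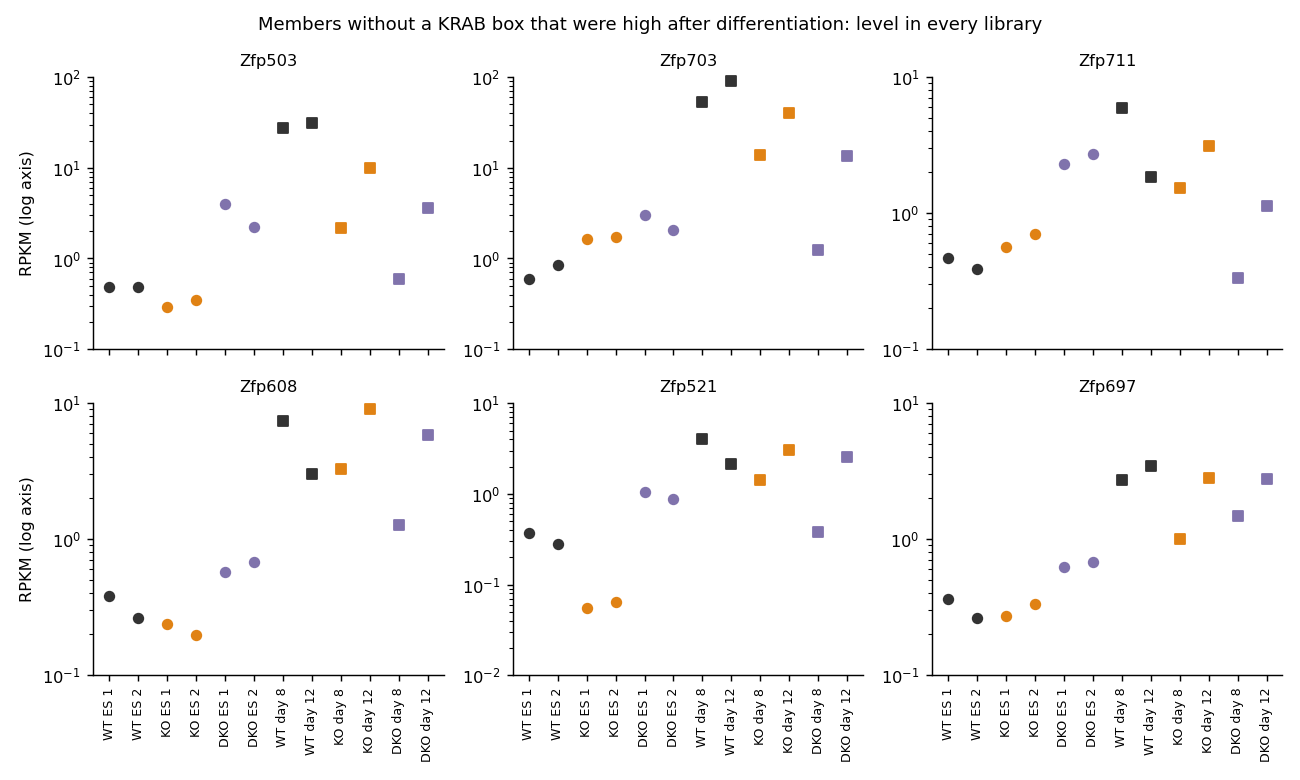
Level of 6 members without a KRAB box in all 12 libraries, in RPKM on a log axis, 1 point per library, circles for ES cells and squares for differentiated cells, black for WT, orange for KO and purple for DKO. For Zfp503 and Zfp703 the WT differentiated points are the highest, up to 31.3 and 90.3 RPKM, and the DKO day 8 point is the lowest differentiated point in every panel except that of Zfp697, where KO day 8 is lower.

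By role, beside 20.1% of all genes higher and 15.7% lower, 3 of the 6 silencers were lower after differentiation (0 higher, also at an unadjusted p under 0.05, by DESeq2 and by limma): Zfp568 by -1.03 (24.9 to 55.9 RPKM in ES cells, 12.4 to 29.6 after differentiation), Zfp932 by -0.94 and Zfp809 by -0.72. The last was lost without any 1 of 7 libraries, both WT and both KO ES, the second DKO ES, WT day 8 and KO day 12 (adjusted p between 0.052 and 0.075). Of 10 co-regulators 4 were higher (Zfp608, a member through the differentiated libraries alone, Zfp516, Zfp652 and Zfp687) and 0 lower (0 lower at an unadjusted p under 0.05, by DESeq2 and by limma). Zfp652 (0.57) lost its call without the first KO ES, the second DKO ES or the KO day 8 library (adjusted p between 0.055 and 0.057). Of 6 developmental regulators 2 were higher, Zfp703 and Zfp521, and 0 lower (0 lower at an unadjusted p under 0.05, by DESeq2 and by limma). Zfp553, among the 2 most abundant members, fell by -1.20 (SE 0.12, adjusted p = 0.00044), from between 45.6 and 126 RPKM to between 25.8 and 47.5 RPKM, where the DKO day 12 library overlapped the WT ES libraries. Of the list of KRAB cofactors and effectors, 10 of 26 were lower after differentiation and 2 higher. The KRAB zinc finger gene Zfp57 (-2.22), also on that list, is among the lower.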

How the data were processed

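Each library came as a table of 29257 transcript models, deposited by the authors with raw read counts and RPKM per model. The submitters' processing notes name Bowtie2 and the mm9 build, while the counter, strand setting and versions were not given in the sources used here. Only the longest model of each symbol entered. The members and lists were chosen with earlier results of these data known.

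Counts were tested with edgeR 4.0.16 (TMM scaling, quasi-likelihood test, R 4.3.3) over all genes with at least 1 RPKM in 2 libraries of the fit, with Benjamini-Hochberg adjustment and a threshold of 0.05. ES comparisons used the 6 ES libraries (3 residual degrees of freedom), differentiated comparisons 6 libraries with day as a term (2), differentiated against ES cells 12 libraries with genotype as a term (8), and the differences between genotypes in that change 12 libraries with day as a term (5). A standard error is the log2 fold change divided by the root of the F statistic. Alternatives were DESeq2 1.42.0, limma 3.58.1 on log2(RPKM + 1) or log2(RPKM + 0.1) computed from the deposited RPKM, other scalings, filters, model choice, a fit with replicate number as a block, and omission of each library in turn. The fits were also run on simulated counts with the same spread set for every gene and few genes changed. That setting differs from these data, so it cannot show how the tests behave on them.

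Genes are named by rule: up to 8 rises and 8 falls in each ES comparison and in differentiated against ES cells, and 4 and 4 in the others, by log2 fold change among called members with a group mean of at least 2 RPKM and groups that do not overlap; the 10 most abundant members; and the role lists. KRAB boxes and fingers were sought in the reading frames of GENCODE transcripts on GRCm38, not the build of the counts, and matched by symbol.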

Additional observations from a re-analysis of the deposited data

Results flagged for a closer look

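The change from ES to differentiated cells differed between KO and WT for 14 of 151 members, beside 16.3% of 13429 genes. This was a test of the difference itself (edgeR, 12 libraries, 2 per genotype and state). Of the genes named by rule, the difference of log2 fold changes was 3.82 for Zfp819 (adjusted p = 0.0014), 2.82 for Zfp600 (0.0086), 2.74 for Zfp936 (0.016), 2.12 for Zfp658 (0.023) and -2.87 for Zfp703 (0.028). The calls of Zfp658, Zfp936 and Zfp703 were lost without any 1 of the 4 WT and KO ES libraries, with adjusted p between 0.067 and 0.10 for Zfp658, between 0.053 and 0.076 for Zfp936 and between 0.082 and 0.11 for Zfp703, and Zfp703 also without the KO day 12 library (0.056).

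Between DKO and WT the change differed for 50 of 151 members, beside 42.0% of 13429 genes. It was 5.04 for Zfp819 (adjusted p = 9.8e-05), 4.91 for Zfp600 (0.00028), 4.51 for Zfp936 (0.00074) and 3.53 for Zfp534 (0.0006), and -7.01 for Zfp503 (0.00035), -5.73 for Zfp703 (0.00075), -5.12 for Zfp711 (0.004) and -3.10 for Zfp521 (0.028). The call of Zfp521 was lost without either WT ES library (adjusted p = 0.066 and 0.091), either DKO ES library (0.075 and 0.063) or the DKO day 8 library (0.066). Both comparisons share the WT libraries, and ES cell markers stayed higher in the differentiated KO and DKO libraries than in the WT ones; their part in these values was not tested.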

How the results depend on the processing

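No result changed direction under the alternatives run. Counts of members called moved by over 1.5 times in these cases. With all 12 libraries in the fit 19 members were called in KO and 56 in DKO against WT ES cells. DESeq2 called 16 in KO and 24 in DKO against WT differentiated cells and 22 for the KO difference in change. Limma called 7 (pseudocount 1) and 8 (0.1) in DKO and 2 (0.1) in KO against WT differentiated cells. Among members sharing at most 10% of windows, an alternative chosen after seeing the data, 1 was called in DKO against WT differentiated cells and 9 for the KO difference in change. Without the 2 DKO differentiated libraries, also chosen after seeing the data, 67 members changed with differentiation, 26 higher and 41 lower.

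Leaving out 1 library at a time gave 33 to 67 calls in KO and 68 to 80 in DKO against WT ES cells, 77 to 89 in DKO against KO ES cells, 37 to 65 in differentiated against ES cells, 0 to 0 in KO and 0 to 14 in DKO against WT differentiated cells, and 4 to 32 and 27 to 62 for the KO and DKO differences in change. Of 205 results for single genes, 121 were called under every setting. With the replicate number as a block, 47 members were called in KO, 81 in DKO against WT and 89 in DKO against KO ES cells. Deviations of same-numbered libraries correlated at -0.04 to -0.09 over 13429 genes. No deviation shared by number was seen, which cannot show whether the libraries were made in pairs. No blocked fit was made for the differentiated libraries, whose 2 numbers are days already in the fit. Each group rests on 2 libraries, so a gene that misses the threshold is not shown to be equal.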
